A study of Mus musculus with 2 samples.

Results

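Meiosis, piRNA and gamete genes were 43 named mouse genes whose known work is in germ cells, and their promoters were examined here in embryonic stem cells. They were taken by name, not by any measured value, from 20587 protein-coding genes analysed in all. By known role they fell into 14 meiosis genes, 12 piRNA genes, 9 germ cell regulators and 8 late gamete genes, the last being 4 genes of the oocyte and 4 of the sperm. The cells were E14TG2a.4, a line of male mouse embryonic stem cells of strain 129/Ola. Their labelled age is 3.5 days and their stage embryonic, and no treatment or genetic change is listed. Chromatin immunoprecipitation with an antibody against H3K4me3, histone H3 trimethylated at lysine 4, was sequenced in 2 biological replicates. Both replicates form 1 group and carry the same donor label, and nothing in the labels says whether they were separate cultures, so there are no groups to test against each other and the spread between replicates may be technical.

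H3K4me3 lies at the starts of genes that are being transcribed and also at many promoters that are held ready without being transcribed. Germ cells use a set of genes that other cells keep silent: the synaptonemal complex and its recombination enzymes pair and recombine chromosomes in meiosis, PIWI proteins with their piRNAs silence transposons, and protamines or zona pellucida proteins build the mature sperm or egg. In other cells many of these promoters are held silent by DNA methylation or by repressor complexes that include E2F6 and the E-box binding proteins MGA and MAX.

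A promoter counts as marked here if any peak in the authors' replicated list (build mm10) reaches within 1 kb of the gene's 5′ end, upstream or downstream. The signal is the authors' fold of ChIP over control at the strongest such peak, and the width is the span of the domain formed when peaks under 1 kb apart are joined. The replicate lists held 86781 and 83750 peaks, a mean of 85265.5 ± 2143 (SD, n = 2), and the replicated list held 62128. The sequencing depth behind them is unknown. The stem cell label was checked with marker lists: 9 of 10 embryonic stem cell markers were marked, against 68.4% of all coding genes. Their medians were 56.7 for signal and 15740 bp for width, against 43.1 and 2428 bp over all marked genes. The exception was Esrrb, which had a region in the mm9 list, while Nanog was marked on mm10 and had no mm9 region. All 7 primordial germ cell genes, described below, were marked as well, at medians of 19.8 and 4648 bp. Of 8 fibroblast markers 3 were marked, with signals between 13.7 and 23.4 (Col1a1, Col1a2 and Thy1), while Col3a1, Dcn, Lum, Postn and Acta2 had no peak. Of 6 primitive endoderm markers 3 were marked (Gata6, Sox17 and Sox7), with a median signal of 14.2, while Afp, Ttr and Cubn had no peak. What cells other than stem cells add to the values below was not tested.

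Of the 43 germline genes, 33 (76.7%) had a promoter peak, against 68.4% of all 20587 protein-coding genes. The count was 12 of 14 for the meiosis genes, 10 of 12 for the piRNA genes and 7 of 9 for the germ cell regulators. All 4 oocyte genes had a peak and none of the 4 sperm genes did, so that the late gamete count was 4 of 8. This contrast depends on the list and on the start taken. With mm9 regions at coding starts it was 3 of 4 oocyte genes and 1 of 4 sperm genes. The Gdf9 peak was shared with another gene, Uqcrq, and Figla was called in 1 replicate list only. The share of the 43 genes that was marked was thus near that of all genes, and in the mm10 lists the marks were small. The median signal of the 33 marked genes was 8.91, against 43.1 over all 14076 marked genes. Their median width was 1120 bp, against 2428 bp. All but Gdf9 lay below the median signal of marked genes, 32 of 33 beside 49.9% by construction, and 28 lay below the lower quartile, 23.7, beside 25.0%. Weak marks were not particular to these genes: all 3 marked fibroblast genes and all 3 marked primitive endoderm genes also lay below the median signal. In width 29 of 33 lay below the median, beside 50.0%, and 21 below the lower quartile of 1679 bp, beside 25.0%.

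**Figure D1:**
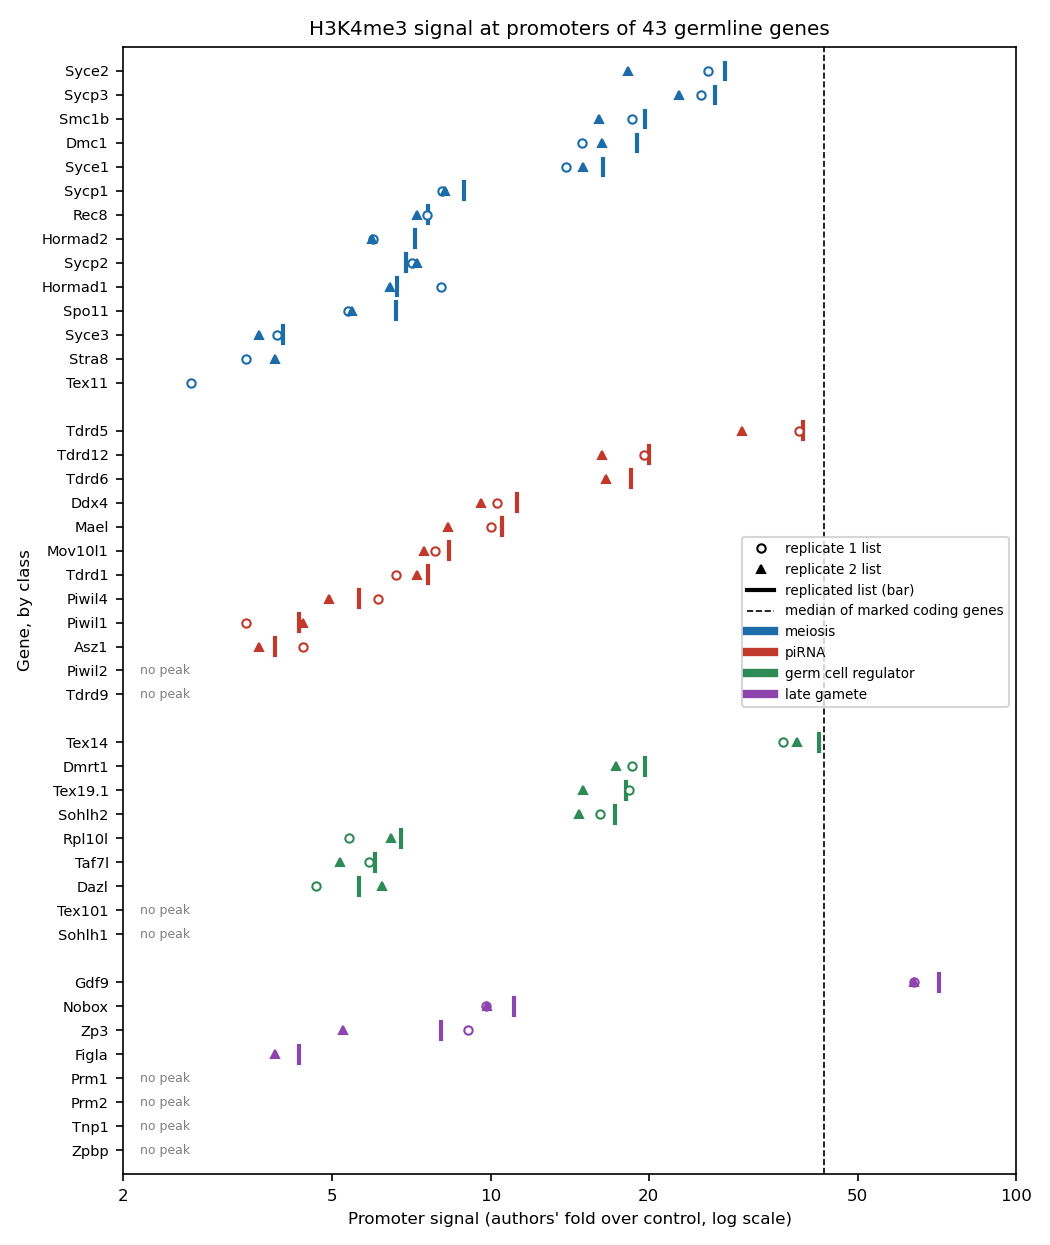
H3K4me3 signal (the authors' fold over control, log axis) at the promoter of each of the 43 genes, in rows grouped by class. Bars give the replicated list, open circles the replicate 1 list and triangles the replicate 2 list, "no peak" marks a gene without a promoter peak in these 3 lists. All marked coding genes together had a median of 43.1, drawn as a dashed line. Only the bar of Gdf9, at 71.3, lies to the right of that line.

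Among the meiosis genes the strongest marks in the replicated list were on the scaffold of the synaptonemal complex. Syce2, a protein of its central element, had a signal of 27.9, with 25.9 in the replicate 1 list and 18.3 in the replicate 2 list (mean 22.1 ± 5.40 SD, n = 2). Sycp3, of the axial element along each chromosome, had 26.7, with 25.2 and 22.8 in the replicate lists (mean 24.0 ± 1.70 SD, n = 2), and its peak lay at chr10:88459391-88461589. In both genes replicate 2 was the lower. Their widths, 1694 and 2199 bp, were below the median of marked genes.

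The other parts of the same complex were weaker in that list. Syce1, also of the central element, had a signal of 16.4, from 13.9 and 15.0 in the replicate lists. Sycp1, which spans the gap between paired chromosomes as the transverse filament, had 8.91, from 8.08 and 8.17. Sycp2, the partner of Sycp3, had 6.90, from 7.10 and 7.25. Syce3 was the weakest of the meiosis genes that were marked, at 4.03, from 3.92 and 3.63, and its peak was 398 bp wide. Across these 6 genes of 1 structure the signal thus ran from 4.03 to 27.9, and for each of them the values of the replicates differed by less than the span between the strongest and the weakest.

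The cohesins and recombination enzymes covered a like range. Smc1b, a meiotic cohesin subunit, had a signal of 19.7, from 18.6 and 16.1 (mean 17.3 ± 1.79 SD, n = 2). Rec8, the meiotic kleisin of the same ring, had 7.62, from 7.59 and 7.25. Dmc1, the meiotic strand-exchange enzyme, had 19.0, from 14.9 and 16.3 (mean 15.6 ± 0.963 SD, n = 2), in a peak of 1815 bp. Spo11, which cuts DNA to start recombination, had 6.61, from 5.36 and 5.44, at chr2:172976967-172977966. The chromosome axis proteins Hormad1 and Hormad2 had 6.65 and 7.19. For Hormad1 replicate 1 read 8.04 and replicate 2 read 6.44, and for Hormad2 they read 5.98 and 5.94, so these 2 genes were not ordered the same way in the 3 lists.

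Stra8 and Tex11 were the meiosis genes without a call. Stra8, which retinoic acid induces at the entry into meiosis, missed the window by little: the nearest replicated peak began 1016 bp downstream of its 5′ end, with a signal of 3.74. Each replicate's own list did hold a peak in the window, at 3.43 and 3.89. At the start that RefSeq gives, 785 bp further downstream, the replicated list had a peak of 5.03, and the mm9 list had a region of 7.15. Tex11, an X-linked crossover gene present in 1 copy in male cells, had a peak of 2.69 in the replicate 1 list and of 2.44 in the pooled list, and none in the replicate 2 list or in the mm9 lists.

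Among the piRNA genes the Tudor domain proteins, which hold PIWI proteins in the granules where piRNAs act, had both the strongest and some of the weaker marks. Tdrd5 had a signal of 39.3, from 38.7 and 30.1 in the replicate lists (mean 34.4 ± 6.09 SD, n = 2), at chr1:156302763-156304260. Its summit was 889 bp downstream of the gene's 5′ end and 67 bp upstream of the start that RefSeq gives. Tdrd12 had 20.0, from 19.6 and 16.3, in the widest domain of all 33 genes, 3098 bp. Tdrd1 had 7.62, from 6.61 and 7.25, in 721 bp. Tdrd6 had 18.5 and rests on the edge of the window: its replicated peak began 985 bp downstream of the 5′ end. The replicate 2 peak began at 971 bp, with a signal of 16.6, and the replicate 1 peak began at 1178 bp, outside the window, with 16.4. Both replicates thus had a peak of similar signal there. At Tdrd9, a Tudor protein with a helicase domain, none of the 7 deposited lists had a promoter peak, and the nearest replicated peak, at 67.6, had its summit 209 bp from the start of Atp5mpl.

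The 3 PIWI genes themselves were at the low end. Piwil4 had a signal of 5.61, from 6.12 and 4.92, and Piwil1 had 4.31, from 3.43 and 4.40. Piwil2 had no peak in any mm10 list, and the nearest replicated peak, 49.9, had its summit 418 bp from the start of Polr3d. In the mm9 lists a weak region did lie within 1 kb of the Piwil2 start, with 4.50 in the series list and 4.51 and 4.56 in the replicates.

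The remaining piRNA genes were also modest. Ddx4, the RNA helicase called Vasa in flies, had a signal of 11.2, from 10.3 and 9.59 (mean 9.93 ± 0.489 SD, n = 2), at chr13:112651678-112652490. Mael, a protein of the piRNA granules, had 10.5, with 8.29 in replicate 2 and the higher value in replicate 1 (mean 9.16 ± 1.23 SD, n = 2). Mov10l1, the helicase that binds piRNA precursors, had 8.34, from 7.83 and 7.49. Asz1, which sits at the outer membrane of mitochondria where piRNAs are cut, was the weakest marked gene of all, at 3.88, from 4.39 and 3.63, and it was the only gene marked in the replicated list that had no region in the mm9 list at any start. The median width of the 10 marked piRNA genes was 767 bp in the replicated list, the smallest of the 4 classes.

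In the replicated list the germ cell regulators had the highest class median, 17.3, and the largest median width, 2188 bp. The order in signal did not hold on mm9, where at any start their median of 8.51 was below that of the meiosis genes, 11.3, and of the piRNA genes, 9.94. Tex14, needed for the bridges between germ cells, had a signal of 42.1, from 36.0 and 38.3 (mean 37.2 ± 1.68 SD, n = 2). The transcription factors Dmrt1 and Sohlh2 had 19.7, from 18.6 and 17.4, and 17.3, from 16.2 and 14.8. Tex19.1, which helps to hold transposons silent, had 18.1, from 18.4 and 15.0, and a width of 2188 bp. For Dmrt1, Sohlh2 and Tex19.1 the replicates differed by less than the distance of each from the median of marked genes. Tex14 lay close to that median, and in the replicate 2 list it was above that list's own median.

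Dazl, an RNA-binding protein of early germ cells, stood lower, at 5.61, from 4.65 and 6.22 (mean 5.43 ± 1.11 SD, n = 2), although its peak spanned 1624 bp. Taf7l, an X-linked relative of a general transcription factor subunit, had 6.04, from 5.87 and 5.18, spread over 3 separate peaks of 3.31, 6.04 and 4.60. Rpl10l, a retrogene for a ribosomal protein of male meiosis, had 6.76, from 5.38 and 6.48. Its domain of 3004 bp was longer than the gene, which is 1023 bp. Rpl10l resembles its parent gene in sequence, and the sources used here do not say where reads that fit both genes were placed. Sohlh1, the partner of Sohlh2, had no peak in any list, and Tex101, a surface protein of germ cells, had only a peak of 2.73 in the pooled list.

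Of the oocyte genes, Nobox, a homeobox factor of the early follicle, had a signal of 11.1, from 9.79 and 9.84 (mean 9.82 ± 0.0400 SD, n = 2). Zp3, a protein of the egg coat, had 8.05, from 9.05 and 5.23 (mean 7.14 ± 2.70 SD, n = 2), the largest relative difference between replicates among these genes. Figla, which activates the egg coat genes, had 4.31 in a peak of 445 bp that began 727 bp downstream of the 5′ end. It was called at 3.89 in the replicate 2 list and not called in the replicate 1 list. The start that RefSeq gives for Figla lies 697 bp downstream of the 5′ end.

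The sperm genes gave no promoter peak in the replicated list or in either replicate list. Prm1 and Prm2 encode the protamines that pack sperm DNA, and Tnp1 encodes a transition protein that precedes them. Prm1 had a peak of 2.44 in the pooled list alone, and Prm2 and Tnp1 had none in any of the 7 lists. The replicated peak nearest to both protamine genes, 8.77, lay at the start of Tnp2, another sperm gene of the same cluster, with its edge 7728 bp from Prm1 and 3010 bp from Prm2. Zpbp, a protein of the acrosome that binds the egg coat, had a replicated peak of 20.8 that began 1353 bp downstream of its 5′ end. That peak falls at the start RefSeq gives, 1804 bp downstream, and in the mm9 list a region of 10.1 lay within 1 kb of the Zpbp start. The count of sperm genes without a mark thus depends for Zpbp on which start is taken. The start of Spata48 lies 479 bp from the 5′ end of Zpbp. Among gene 5′ ends, that of Spata48 lay nearest to the summit of the replicated peak, at 1531 bp.

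A strong mark beside a germline gene can belong to another gene. Among the 33 marked genes, 5 had another gene start within 2 kb, 15.2%, against 29.2% of all marked genes. Gdf9, the oocyte growth factor, had by far the strongest mark of the 33, 71.3, from 63.9 and 64.1 (mean 64.0 ± 0.151 SD, n = 2), above 94.9% of marked genes. The gene Uqcrq, which encodes a subunit of respiratory complex III, starts on the opposite strand 57 bp downstream of the Gdf9 5′ end. The peak, chr11:53429040-53430989, had its summit 222 bp upstream of Gdf9, which is 279 bp downstream of the start of Uqcrq. A separate and weaker peak, 16.4, ran from 331 to 1195 bp downstream of the Gdf9 5′ end. In the mm9 series list a region of 20.8 lay within 1 kb of the starts of both processed transcripts annotated to Gdf9. The protein-coding start, chr11:53246801 on mm9, had no region within 1 kb in that list or in either replicate's. The mark and the 2 genes cannot be told apart by position alone, and the values given here are those of the shared start.

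Tex14 was the other case in which the summit lay on the neighbour's side. Rad51c, a DNA repair gene that is used in many tissues, starts 59 bp upstream on the opposite strand. The summit of the 42.1 peak was 794 bp upstream of Tex14 and 735 bp downstream of Rad51c. For Smc1b, with Ribc2 starting 103 bp upstream, the summit lay 258 bp downstream of Smc1b. For Mov10l1, with Mlc1 starting 198 bp upstream, it lay 191 bp downstream of Mov10l1. For Spo11 the other start, of the lncRNA Gm52538, was 1741 bp away and had no peak of its own. In the vM1 annotation on mm9 Rec8 and Piwil4 also had a neighbour, Ipo4 at 1498 bp and Gm10706 at 428 bp. Summits were downstream of the 5′ end in 31 of 33 genes, beside 85.2% of all marked genes, and the 2 upstream were Gdf9 and Tex14. Without the 5 genes with a neighbour, the 28 that remained all lay below the median signal of all marked genes, 43.1. Their medians were 8.48 in signal and 1069 bp in width. The 43.1 includes marked genes that have a neighbour, and the median of those without one was not computed.

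**Figure D2:**
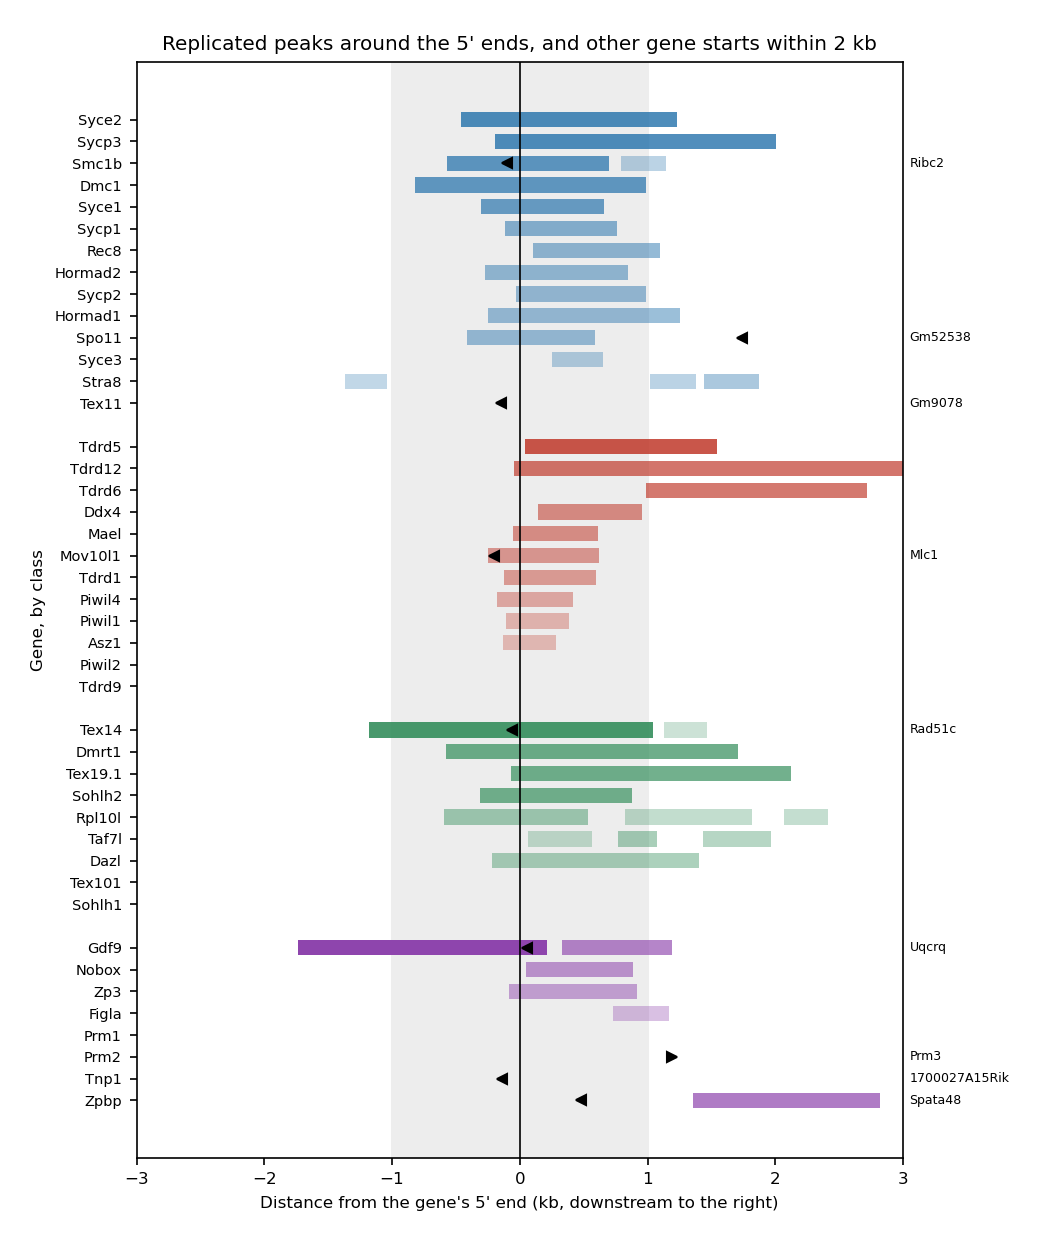
Replicated peaks (bars, darker with higher signal) around the 5′ end of each of the 43 genes, with the distance from that end in kb on the horizontal axis and downstream to the right. Grey marks the 1 kb window and black triangles mark other gene starts within 2 kb, pointing the way that gene is transcribed and named at the right. The peak of Gdf9 extends mostly upstream, on the side of Uqcrq, while the peaks of Sycp3, Tdrd12 and Tex19.1 extend downstream.

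In the plane of signal and width the germline genes lay along the weak and narrow side of all marked genes. In width the exceptions without a neighbour were Tdrd12 and Rpl10l, with 3098 and 3004 bp. The width of Rpl10l was 1953 bp in the replicate 1 list, below that list's median of 2305 bp, where Tex19.1 lay above it instead, and 2884 bp in the replicate 2 list. The replicated list gives each of the 33 genes the same signal as the pooled list, so it adds no measurement of its own to the replicates. In the replicate 1 list 31 of 33 marked genes lay below that list's median of 38.5 (beside 50.0%), all but Gdf9 and Tdrd5. In the replicate 2 list 32 of 34 lay below 36.8 (beside 49.9%), all but Gdf9 and Tex14. The mm9 lists gave a smaller difference. At any GENCODE vM1 start, 35 of the 43 genes had an mm9 region, against 72.6% of all genes, and 27 of those 35 lay below the median signal of 15.9, beside 50.0%. The 8 at or above it were Ddx4, Gdf9, Mael, Syce2, Sycp1, Taf7l, Tdrd5 and Tdrd6. The Sycp1 value, 20.1, was that of an internal start, and at its 5′-most start Sycp1 had 10.1, below the median. Taf7l also lay below it at its 5′-most start, by little, with 15.8. Ddx4, for example, had 22.2 in the mm9 list, above its median, and 11.2 in the mm10 list, where the median was 43.1. In mm9 width 30 of 35 lay below the median of 3200 bp, beside 48.6%. The cause of the difference between builds was not tested, and the mm9 and mm10 lists differ in format and in region width.

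**Figure D3:**
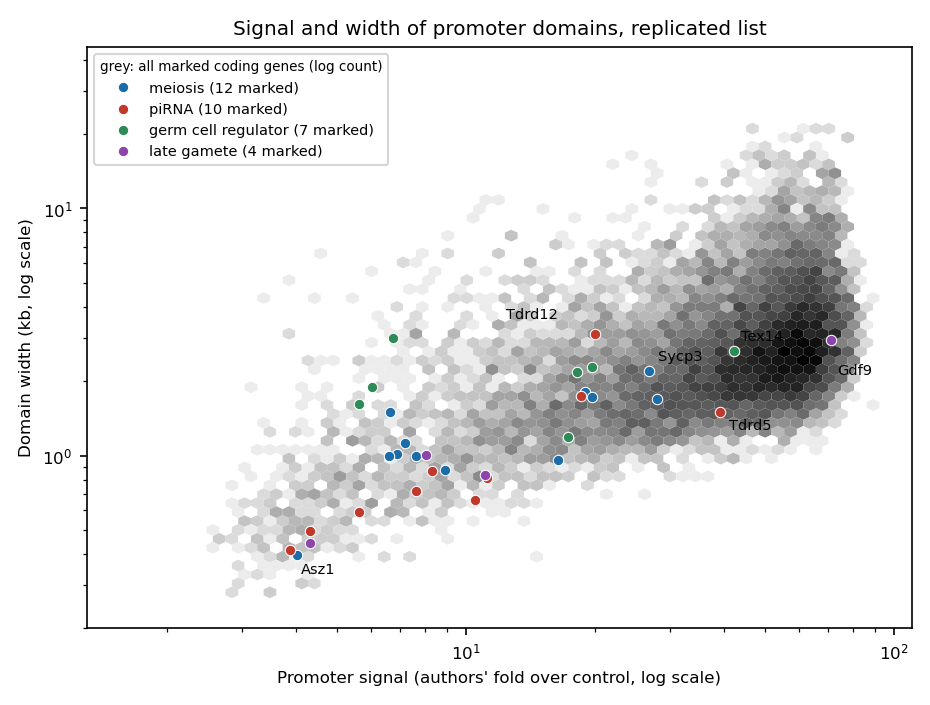
Promoter signal (horizontal, the authors' fold over control) against domain width (vertical, kb) in the replicated list, both on log axes. Grey hexagons count all 14076 marked coding genes, darker where there are more, and coloured points are the 33 marked germline genes by class. Most points lie left of the dense grey region, and Gdf9 and Tex14 lie inside it.

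The count of marked germline genes moved little with the list and the window, and so did the share of all genes. It was 33 in the replicate 1 list (68.7% of all genes), 34 in the replicate 2 list (68.6%) and 37 in the pooled list (69.8%), where Stra8, Tex11, Tex101 and Prm1 were added. With a q-value under 1e-05 it was again 33 (68.0%), with 200 bp of the window covered 32 (67.7%), with a window of 500 bp 31 (66.7%) and with one of 2 kb 35 (70.4%). At the RefSeq starts it was 35 (70.5%), where Stra8 and Zpbp were added.

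The mm9 lists also changed which genes counted as marked. At the 5′-most start 35 genes had a region, against 70.0% of all genes, and in the single replicates 32 each had one at any start, against 71.9% and 71.4%. Figla, Piwil1 and Syce3, all weak on mm10, had a region in the series list and in neither replicate's. Stra8, Zpbp and Piwil2 gained a region and Asz1 lost its mark. When mm9 regions were counted at protein-coding starts only, 32 genes were marked, against 71.5% of all genes, and Gdf9, Spo11 and Tdrd5 were lost as well. For Spo11 the region, 4.97, lay within 1 kb of the start of a retained-intron transcript and of none of the coding starts. For Tdrd5 the region, 16.7, lay within 1 kb of 3 processed-transcript starts, and no protein-coding start of the gene is annotated there. These 3 calls on mm10 therefore stand on starts for which a coding transcript was not annotated in vM1.

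Promoters in mammals differ in how many CpG sites they hold, and CpG-rich promoters are the usual place of H3K4me3. Of the 43 genes 13 had a high-CpG promoter, 20 an intermediate and 10 a low-CpG one, by the sequence at the 5′-most vM1 start. Within the high-CpG class 11 of 13 germline genes were marked, against 96.2% of all such genes, with a median signal of 18.5 against 51.3. The unmarked high-CpG genes, Tex11 and Zpbp, each had another gene start within 2 kb. The 8 high-CpG germline genes without a neighbour were therefore all marked, at a median of 10.9. The same share and median over all high-CpG genes without a neighbour were not computed. In the intermediate class 16 of 20 were marked, against 85.9%, with a median signal of 7.98 against 35.9. In the low-CpG class 6 of 10 were marked, against 28.3%, with a median signal of 6.11 against 16.2. The low medians thus appeared within each class, and the sperm genes Prm1, Prm2 and Tnp1 were all low-CpG.

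**Figure D4:**
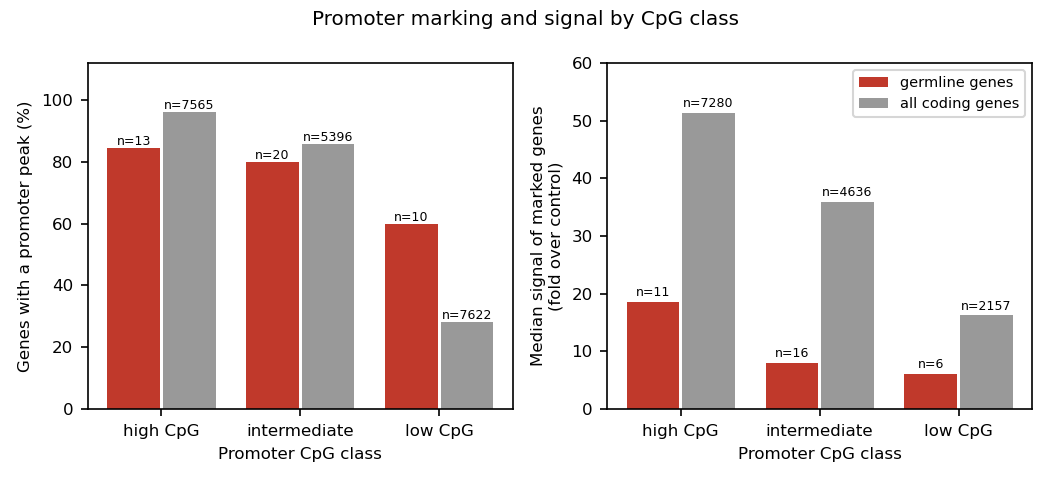
Share of genes with a promoter peak (left, percent) and median signal of marked genes (right, the authors' fold over control) by promoter CpG class, for the germline genes (red) and all coding genes (grey), with the number of genes above each bar. The bars carry no error because genes are not replicates. In each class the red bar on the right is lower than the grey, with medians of 18.5, 7.98 and 6.11 against 51.3, 35.9 and 16.2.

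Sequences rich and poor in CpG are shown as examples. They are of the piRNA gene with the strongest mark of its class, a marked meiosis gene and the unmarked genes of sperm chromatin. Each line gives 150 bases directly upstream of the start in RefSeq, 5′ to 3′ on the gene's strand, on GRCm38.p6 (mm10), with every CpG in capitals.
Tdrd5 (chr1:156303349-156303498, minus strand): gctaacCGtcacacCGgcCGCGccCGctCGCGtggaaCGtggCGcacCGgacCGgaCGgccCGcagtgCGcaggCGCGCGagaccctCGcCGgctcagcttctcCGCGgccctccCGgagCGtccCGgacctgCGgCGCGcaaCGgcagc
Smc1b (chr15:85131958-85132107, minus strand): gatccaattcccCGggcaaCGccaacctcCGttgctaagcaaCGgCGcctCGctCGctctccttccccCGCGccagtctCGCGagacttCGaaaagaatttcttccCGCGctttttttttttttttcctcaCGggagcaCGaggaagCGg
Prm1 (chr16:10796824-10796973, minus strand): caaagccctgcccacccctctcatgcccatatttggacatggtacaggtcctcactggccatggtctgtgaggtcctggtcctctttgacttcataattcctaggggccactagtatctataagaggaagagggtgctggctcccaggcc
Prm2 (chr16:10792106-10792255, minus strand): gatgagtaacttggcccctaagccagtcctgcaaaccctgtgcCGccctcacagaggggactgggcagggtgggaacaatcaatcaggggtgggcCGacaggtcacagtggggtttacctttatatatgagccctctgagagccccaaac
Tnp1 (chr1:73015900-73016049, minus strand): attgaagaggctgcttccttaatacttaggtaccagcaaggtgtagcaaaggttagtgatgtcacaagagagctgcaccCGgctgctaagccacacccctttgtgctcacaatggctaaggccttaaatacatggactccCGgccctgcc
In these stretches Tdrd5 had 28 CpG sites and Smc1b 17, while Prm2 and Tnp1 had 2 each and Prm1 had 0. Over all 300 bases of the RefSeq promoter, 250 before and 50 after the start, Tdrd5 had 48 and Prm1 had 1. The median was 17 over the marked genes with a sequence and 8.5 over the unmarked ones. The 2 groups overlapped: the marked genes Tdrd12 and Syce3 had 9 and 5, and the unmarked genes Tex101 and Sohlh1 had 19 and 14.

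Promoter sequences of 300 bases were matched for 37 of the 43 genes. Those of Spo11, Tex11, Piwil2, Tdrd6, Gdf9 and Dmrt1 were not. The E-box, CACGTG, which reads the same on both strands, was present in 12 of the 37 (32.4%), against 8.16% of the 16543 coding promoters in the table and 10.2% of those marked. Among the piRNA genes 6 of 10 had it (Ddx4, Mael, Piwil1, Tdrd1, Tdrd9 and Mov10l1), among the meiosis genes 3 of 12 (Sycp1, Sycp3 and Hormad1), among the regulators 2 of 8 (Taf7l and Sohlh1) and among the late gamete genes 1 of 7 (Zp3). The E2F6 motif, searched as GGCGGGA on both strands, was in 5 (13.5%), against 15.5%, and in all but Tex14 it came with an E-box. The cAMP response element TGACGTCA was in none, against 2.41%, and TATAAA was in 5 (13.5%), against 13.1%. A match is a stretch of letters and no evidence that a protein binds there.

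The E-box sequences are shown for 6 marked genes and for both unmarked genes that hold it, in bases upstream of the RefSeq start on GRCm38.p6 and with the E-box in capitals.
Sycp1 (chr3:102936101-102936220, minus strand): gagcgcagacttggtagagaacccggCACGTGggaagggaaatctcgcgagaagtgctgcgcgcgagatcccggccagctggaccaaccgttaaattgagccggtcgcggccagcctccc
Sycp3 (chr10:88459467-88459586, plus strand): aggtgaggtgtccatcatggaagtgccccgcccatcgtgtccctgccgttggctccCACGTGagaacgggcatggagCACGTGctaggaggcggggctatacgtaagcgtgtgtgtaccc
Hormad1 (chr3:95559557-95559676, plus strand): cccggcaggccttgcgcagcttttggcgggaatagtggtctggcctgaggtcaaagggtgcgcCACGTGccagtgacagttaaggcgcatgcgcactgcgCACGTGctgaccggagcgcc
Ddx4 (chr13:112652311-112652430, minus strand): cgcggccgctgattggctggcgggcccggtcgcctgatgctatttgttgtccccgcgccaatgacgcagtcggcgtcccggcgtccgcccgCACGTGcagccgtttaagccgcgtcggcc
Tdrd1 (chr19:56826089-56826208, plus strand): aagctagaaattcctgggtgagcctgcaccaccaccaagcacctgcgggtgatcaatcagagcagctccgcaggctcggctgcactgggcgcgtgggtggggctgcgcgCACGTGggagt
Taf7l (chrX:134476491-134476610, minus strand): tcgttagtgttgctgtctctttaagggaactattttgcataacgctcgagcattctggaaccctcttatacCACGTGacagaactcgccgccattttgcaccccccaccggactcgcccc
Tdrd9 (chr12:111971359-111971558, plus strand): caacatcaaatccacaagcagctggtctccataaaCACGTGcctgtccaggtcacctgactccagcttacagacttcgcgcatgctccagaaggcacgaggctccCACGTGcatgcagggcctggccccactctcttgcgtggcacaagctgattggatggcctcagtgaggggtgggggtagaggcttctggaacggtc
Sohlh1 (chr2:25847249-25847488, minus strand): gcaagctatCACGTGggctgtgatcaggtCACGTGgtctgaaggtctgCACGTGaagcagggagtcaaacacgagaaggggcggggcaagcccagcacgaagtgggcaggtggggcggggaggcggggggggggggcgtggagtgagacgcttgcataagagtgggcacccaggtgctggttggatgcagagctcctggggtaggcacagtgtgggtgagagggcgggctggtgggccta
Sycp3 held 2 E-boxes, 64 and 43 bases upstream of the start, and Hormad1 held 2, at 57 and 20 bases. In Ddx4 the E-box was 29 bases upstream and in Tdrd1 11 bases. Sohlh1 held 3 and Tdrd9 held 2 within 250 bases, and neither had a promoter peak in any list. The signals of the 6 marked genes in this group ran from 6.04 (Taf7l) to 26.7 (Sycp3), so the motif was found with marked and unmarked promoters. Over all 10 marked genes with an E-box the median signal was 8.20, and all but Sycp3 were at 11.2 or less. Over the 19 marked genes with a matched sequence and no E-box it was 11.1, and 9 of them had 16.4 or more. This difference was not tested.

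The replicates gave nearly the same picture of these genes. A promoter peak was present in both replicate lists for 32 of 43 genes, against 67.8% of all genes. Tex11 was called in replicate 1 only, Tdrd6 and Figla in replicate 2 only, and 8 genes in neither. Over the 32 genes the log2 ratio of replicate 2 to replicate 1 signal had a median of -0.08 and ran from -0.79 (Zp3) to 0.42 (Dazl), and 19 of 32 were lower in replicate 2, beside 63.8% of all genes. Zp3 alone differed by more than 1.5-fold, beside 3.36% of the 13951 coding genes with a peak in both. Spearman's rho between the replicate signals was 0.951 over the 32 genes and 0.965 over all 13951. Each of these is a correlation across genes, which are not independent replicates, and the replicates share the donor label and a kind of control.

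Several germline genes have a close relative that works in all cells, and these relatives were compared in the same lists. Rec8 had 7.62 while Rad21, the kleisin of mitotic cohesin, had 56.8, from 49.2 and 51.6 in the replicates, a ratio of 7.45. Smc1b had 19.7 while Smc1a had 41.1, from 36.2 and 36.3, a ratio of 2.09 and the smallest of those given here. In both comparisons each replicate of the somatic gene lay above both replicates of the germline gene.

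The same held for the rest. Taf7l had 6.04 and Taf7 53.6, the largest ratio at 8.88. Rpl10l had 6.76 and its X-linked parent Rpl10 had 39.5, a ratio of 5.85. The helicase Mov10l1 had 8.34 and Mov10 54.8, a ratio of 6.57. Ddx4 had 11.2 and Ddx3x 46.7, a ratio of 4.17, and Piwil2 had no peak while Ago2, the Argonaute of microRNA silencing, had 50.8. The ratios are of signal values at different promoters in the replicated list, where the lower gene of each comparison was the germline gene. Rec8, Taf7l, Mov10l1 and Piwil2 differed from their relatives in CpG class, while Smc1b, Rpl10l and Ddx4 did not. Smc1b and Mov10l1 also have the neighbours Ribc2 and Mlc1. What these features add to the ratios was not tested. In the mm9 list the order of Taf7l and Taf7 was the other way, 17.6 against 12.7, and in the other comparisons the somatic gene was again higher, by little for Ddx3x (24.0 against 22.2 for Ddx4).

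**Figure D5:**
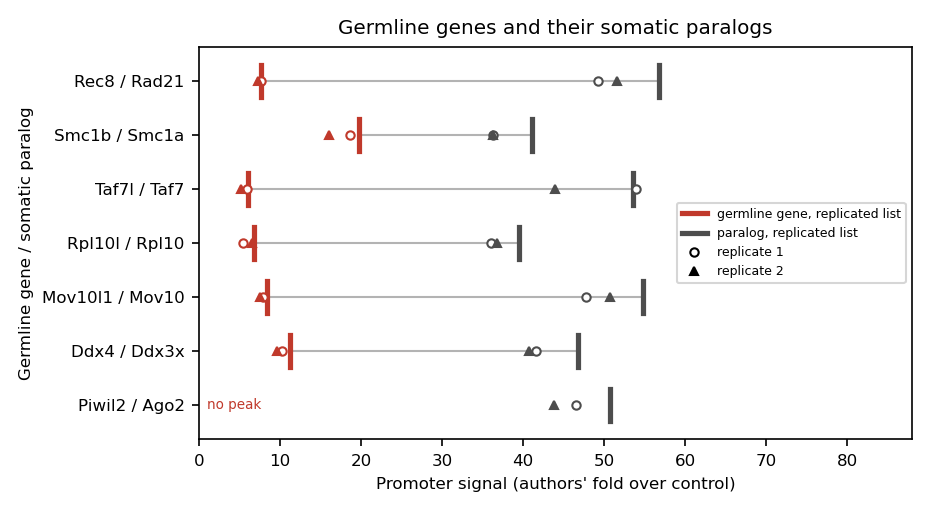
Promoter signal (the authors' fold over control, linear axis) of 7 germline genes (red) and their relatives used in somatic cells (grey). Bars give the replicated list, open circles replicate 1 and triangles replicate 2. In each row that has both genes, all 3 values of the relative lie to the right of all 3 values of the germline gene, and Piwil2 has no peak.

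Further genes of the same pathways gave a wider spread. Of 31 other meiosis genes measured, 27 (87.1%) were marked, against the 68.4% of all genes, with medians of 27.0 in signal and 1572 bp in width, and 17 of the 27 lay below the median of marked genes. Hsf2bp, a partner of the repair factor BRCA2 in meiosis, had 66.4, with the start of Rrp1b 1267 bp away. Msh4, a mismatch repair relative that stabilises crossovers, had 63.3 in the replicated list, from 27.7 in replicate 1 and 57.5 in replicate 2 (SD 21.1, n = 2), a difference far larger than at most of the 43 genes. Meikin and Sgo2a, both of which protect sister chromatid cohesion, had no mm10 peak but had mm9 regions of 22.1 and 15.1. The gene Ankrd31 was not measured.

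Of 14 other piRNA genes 10 (71.4%) were marked, with a median signal of 24.8, and 8 of the 10 lay below the median of marked genes. The transcription factor Mybl1, which drives piRNA precursors in spermatocytes, had 57.8, from 54.8 and 50.3. Ddx25, an RNA helicase of spermatids, had 54.3, with Pus3 starting 90 bp away. Fkbp6 and Gtsf1 had no replicated peak, and Fkbp6 had an mm9 region of 4.98.

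Of other late genes, 4 of 10 oocyte genes (40.0%) were marked, with a median of 14.7 and all 4 below the median of marked genes, and 5 of 15 sperm genes (33.3%), with a median of 11.2. Ooep and Khdc3, parts of the maternal complex beneath the egg membrane, had 28.2 and 20.4, while the egg genes Bmp15 and Nlrp5 had none. Zpbp2, the relative of Zpbp, had 58.8, from 53.8 and 47.8, and the sperm kinase Tssk6 had 53.6, with Ndufa13 starting 164 bp away. The acrosomal genes Acr and Acrv1 had no peak. The differences between these lists were not tested.

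The 7 primordial germ cell genes, which act before meiosis, were all marked, against 68.4% of all coding genes. Their medians were 19.8 in signal and 4648 bp in width, against 43.1 and 2428 bp over all marked genes. In signal 6 of the 7 lay below the median of marked genes, beside 49.9%. Kit, the receptor that germ cells need to migrate and survive, had 56.5. Tfap2c, a transcription factor of germ cell specification, had 41.8, from 12.3 in replicate 1 and 40.7 in replicate 2 (SD 20.0, n = 2).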

How the data were processed

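H3K4me3 ChIP-seq of 2 biological replicates of E14TG2a.4 was analysed from 7 deposited peak lists: on mm10 1 per replicate, 1 pooled and 1 replicated, and on mm9 1 per replicate and 1 for the series. The mm10 signal is a ratio, the authors' fold of ChIP over control, and the mm9 signal is a ratio whose denominator is not given. The deposited mm10 lists also hold the −log10 of a q-value and the summit, and the deposited mm9 lists hold the q-value itself. The aligner, caller and settings were not given in the sources used here. The mm9 region edges lie on a grid of 200 bp. Read counts were not used, so depth is unknown, and an unmarked promoter is only one without a peak past the authors' threshold.

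Genes came from the GRCm38.p6 gene table (21887 coding genes). The table gives no strand, which was taken from GENCODE vM1 (mm9) by name for 18396 genes and by synonym for 2191, and 1300 genes were left out. A gene was marked when any base of a peak lay within 1 kb of its 5′ end, its signal was the highest there, and peaks under 1 kb apart were joined for width. On mm9 the same 1 kb window was set around each vM1 start. CpG classes used 500 bp windows from 1300 bp upstream to 200 bp downstream of the 5′-most vM1 start. In high-CpG promoters 1 window or more had an observed-to-expected ratio over 0.75 and a GC content over 55 percent, and low-CpG promoters had none over 0.48. Neighbours were other gene starts within 2 kb. RefSeq promoter sequences of GRCm38.p6 were matched by gene identifier.

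There is 1 group, so no test was made, and lists are described by counts and medians beside those of all coding genes. The genes, the lists and the rule for named genes were chosen with earlier results of these data known. Each of the 43 genes is named, with the 2 strongest and the first 2 unmarked genes in alphabetical order of each further pathway list, the mm10 neighbours of marked genes and every paralog but 1, which is not reported here. The RefSeq starts, the mm9 coding starts and the medians without neighbours were added after the data were seen. The overlap code was tested on simulated data. Python 3.11.15, numpy 2.4.6, scipy 1.17.1 and matplotlib 3.10.9 were used.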

Additional observations from a re-analysis of the deposited data

How the results depend on the processing

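The count of marked genes, 33 of 43, stayed between 31 and 37 under windows of 500 bp and 2 kb, 200 bp of cover, a q-value limit of 1e-05, the pooled and replicate lists and the mm9 and RefSeq starts, and the class counts stayed within 1.5 times of their main values. The median signal of marked genes, 8.91, lay between 7.83 and 8.08 when either replicate was left out. It was 8.05 in the pooled list, 8.63 with 200 bp of cover, 8.48 without the genes that share a start region, and 9.16 on mm9 at every start and at the 5′-most start, where the scale is another. The median width of 1120 bp became 1498 bp in the pooled list, 2000 bp on mm9 at every start, and 1800 bp on mm9 at the 5′-most start and at coding starts. The cause of these shifts was not tested. Calls for Tdrd6 and Figla were lost with the replicate 1 list and with the 500 bp window, Tdrd6 also with 200 bp of cover, and Stra8 and Zpbp were gained with the 2 kb window. No paired analysis was possible because there is only 1 group of 2 replicates and no groups to pair. Depth is unknown, so how weak a mark could have been missed at the unmarked genes cannot be stated.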
